A study of Mus musculus with 2 samples.

Results

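The genes described here are the core of the hypoxia-inducible factor (HIF) pathway in cultured mouse macrophages. They are the HIF alpha subunit genes Hif1a and Epas1, the oxygen sensor genes Egln1, Egln2, Egln3 and Vhl, and the target genes Vegfa, Bnip3, Ndrg1 and Adm. They were chosen by name, with earlier results of these data known. Of the 23444 gene symbols in the deposited tables, 10 belong to the group. The study measured RNA in bone marrow derived macrophages of the FVB mouse strain. There were 2 libraries, 1 per group. One was labelled RON TK-/- (RON deficient) and the other WT (RON proficient), and they are called the RON TK-/- library and the WT library after those labels. Mst1r encodes RON, a tyrosine kinase receptor for macrophage stimulating protein. By their labels both cultures were kept in high-glucose DMEM with 10% serum, sodium pyruvate and 6 mM glutamine. Both are also said to have had 72 hours of interleukin-4 (recombinant, 10 ng/mL), which drives macrophages to alternative or M2 activation. Neither the number of mice behind a library nor the oxygen level of the cultures is given in the sources used here. The comparison, as labelled, asks how RNA levels differ between interleukin-4 treated macrophages without and with RON kinase. With 1 library per group no difference has a replicate check, no test was run, and higher or lower compares these 2 libraries and not the genotypes.

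HIF is a pair of proteins, an oxygen-regulated alpha subunit (HIF-1 alpha from Hif1a, HIF-2 alpha from Epas1) and a constant beta subunit from Arnt. In oxygen, the prolyl hydroxylases made from the Egln genes mark the alpha subunit, and the von Hippel-Lindau protein (Vhl) then brings it to a ubiquitin ligase for destruction, so much of the control acts on protein and is not seen in RNA. Mouse macrophages are known to raise Hif1a RNA in response to inflammatory stimuli through NF-kB. In these cells HIF-1 alpha has been linked to inflammatory activation with Nos2, and HIF-2 alpha to the response to Th2 cytokines with Arg1.

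The labels were checked first. Mst1r was listed at 0 FPKM in both libraries. There 3 reads would have given 0.00949 FPKM in the RON TK-/- library and 0.0107 FPKM in the WT library. Mst1r RNA thus did not tell the libraries apart, and none was seen in the library labelled RON proficient. The libraries had unlike activation profiles. Arg1 had 5041 FPKM in the RON TK-/- library and 1.0 FPKM in the WT library, while Nos2 had 3.63 and 1100 FPKM, Il1b 0.20 and 823 FPKM, and Tnf 0.52 and 1262 FPKM in the same order of libraries. Retnla had 3665 FPKM in the RON TK-/- library and was listed at 0 in the WT library, although the label of that library states interleukin-4 treatment. The part of the activation profile in the differences below was not tested, and each direction rests on the labels as deposited. All 7 macrophage markers were detected, with summed levels of 6275 and 4521 FPKM in the RON TK-/- and WT libraries, of which Lyz2 made up 4651 and 3317 FPKM. Fcgr1 (3.58 and 26.6 FPKM) and Mertk (9.68 and 32.5 FPKM) lay the other way from the sum. All 4 fibroblast markers were detected too, at 704 and 616 FPKM summed, and their part in the results was not tested. Most of that sum was Col1a2 (433 and 407 FPKM) and Col1a1 (250 and 195 FPKM). Dcn had 13.9 and 8.85 FPKM, and Pdgfrb 6.95 and 4.82 FPKM. Of 24 markers of 7 other cell types found in the tables, 3 reached 1 FPKM in a library and none exceeded 6.54 FPKM. The defining T cell genes Cd3d, Cd3e and Cd3g were listed at 0 in both.

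The letters near the transcription start are shown for 4 of the genes: Hif1a, with the lowest ratio between the libraries, Egln1, with the highest, Bnip3, the most abundant of the 4 targets in both libraries, and Adm, the one of these targets with the highest ratio. HIF binds DNA at a short core, and the capitals mark every match to that core, written ACGTG or GCGTG, on either strand (CACGT or CACGC when read on the printed strand). Each stretch holds the 250 bases before a RefSeq start on the GRCm38.p6 assembly, printed 5′ to 3′ on the gene's strand. They lie at chr12:73907617-73907866 (plus strand) for Hif1a, chr8:124949255-124949504 (minus) for Egln1, chr7:138909507-138909756 (minus) for Bnip3 and chr7:110627407-110627656 (plus) for Adm.
Hif1a: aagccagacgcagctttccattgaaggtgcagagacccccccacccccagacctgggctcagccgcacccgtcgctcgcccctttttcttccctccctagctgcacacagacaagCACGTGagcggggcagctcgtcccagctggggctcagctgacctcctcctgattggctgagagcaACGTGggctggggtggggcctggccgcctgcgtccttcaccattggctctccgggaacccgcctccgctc
Egln1: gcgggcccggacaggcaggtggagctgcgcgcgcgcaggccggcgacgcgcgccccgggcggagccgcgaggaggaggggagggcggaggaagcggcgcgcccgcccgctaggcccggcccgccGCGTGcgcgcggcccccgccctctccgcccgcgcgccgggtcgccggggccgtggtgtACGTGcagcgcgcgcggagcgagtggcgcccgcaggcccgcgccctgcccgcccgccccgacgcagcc
Bnip3: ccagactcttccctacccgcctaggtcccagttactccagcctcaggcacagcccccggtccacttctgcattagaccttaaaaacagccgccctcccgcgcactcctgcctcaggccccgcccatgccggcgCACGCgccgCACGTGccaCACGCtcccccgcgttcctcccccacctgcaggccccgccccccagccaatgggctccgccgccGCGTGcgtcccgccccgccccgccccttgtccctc
Adm: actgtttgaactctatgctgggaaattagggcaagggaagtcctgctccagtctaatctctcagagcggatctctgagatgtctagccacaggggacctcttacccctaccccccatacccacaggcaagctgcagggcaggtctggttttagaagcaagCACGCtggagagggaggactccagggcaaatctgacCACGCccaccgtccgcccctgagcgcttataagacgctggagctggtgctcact

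Bnip3 had 5 matches in 4 separate stretches, of which one is the palindrome CACGTG, where an ACGTG on each strand overlaps. Hif1a had 3 matches, again with 1 such palindrome. Egln1 and Adm had 2 each. The RefSeq promoter table held 8 of the 10 genes, with 10 starts in all, and 8 of these 10 starts had at least 1 match. Of all 32851 starts in the table, 38.6% had one. These shares were not matched for base composition, and no excess was tested. The starts with a match include an internal start of Egln2 and that of Vegfa. The 2 starts without a match were the start of Vhl and the upstream start of Vegfa, which says only that these letters are not in the 250-base window. A match is a description of sequence and not a site of binding.

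Hif1a and Epas1 were both lower in the RON TK-/- library. Hif1a, which encodes HIF-1 alpha, lies on the plus strand at chr12:73907867-73947530 of the mm10 build. It had 42.2 FPKM in the RON TK-/- library and 153 FPKM in the WT library, 0.276 times the WT level. FPKM counts fragments per kilobase of transcript, scaled to library depth, so that levels can be compared between genes. In RNA of whole cultures, fewer cells with a transcript and less of it per cell cannot be told apart. The Hif1a log2 ratio of RON TK-/- over WT, taken on FPKM + 1, was -1.84, the lowest of the 10 genes, and 4.60% of the 11288 detected genes (1 FPKM or more in at least 1 library) had a lower ratio. In the RON TK-/- library Hif1a was the third most abundant of the 10 genes, at percentile 85.2 of detected genes, and in the WT library it was the most abundant, at percentile 95.6. Epas1, which encodes HIF-2 alpha and lies on the plus strand at chr17:86753864-86833410, had 11.8 FPKM in the RON TK-/- library and 19.4 FPKM in the WT library, with a log2 ratio of -0.68. Epas1 was the least abundant of the 10 genes in the RON TK-/- library and the sixth in the WT library. The Hif1a level was 3.59 times that of Epas1 in the RON TK-/- library and 7.87 times in the WT library. Such a ratio of 2 genes within a library does not change when the whole library is rescaled.

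**Figure D1:**
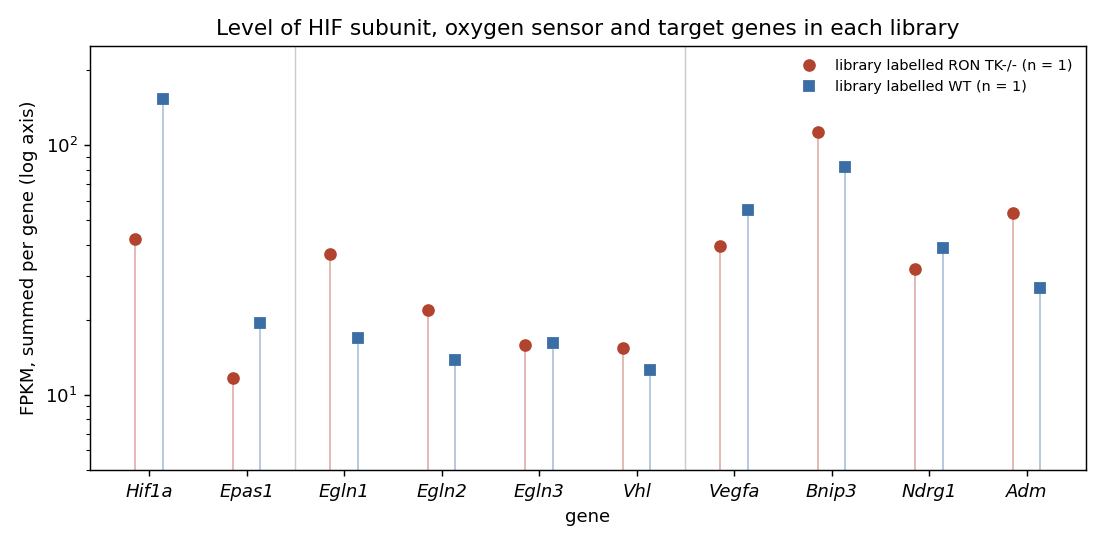
FPKM summed per gene on a log axis, with 1 point per gene and library, circles for the RON TK-/- library and squares for the WT library. Thin stems guide the eye, and grey lines part subunits, oxygen sensors and targets. Hif1a stands apart by the widest gap, at 42.2 and 153 FPKM, and Egln3 lies level as deposited at 15.9 and 16.1 FPKM.

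The prolyl hydroxylase genes did not move together. Egln1 encodes PHD2, the main HIF prolyl hydroxylase in most cells and itself a HIF target, and lies on the minus strand at chr8:124908587-124949254. It had 36.8 FPKM in the RON TK-/- library and 17.0 FPKM in the WT library, and its log2 ratio of 1.07 was the highest of the 10 genes. Egln2, which encodes PHD1, had 21.8 FPKM in the RON TK-/- library and 13.8 FPKM in the WT library, a log2 ratio of 0.63. Egln3 encodes PHD3, the family member known for strong induction by hypoxia, and had 15.9 FPKM in the RON TK-/- library and 16.1 FPKM in the WT library. With the values as deposited its difference was not detectable at this depth, since the counting interval of its log2 ratio without a pseudocount ran from -0.10 to 0.05. Its ratio was -0.56 after rescaling the libraries to a median ratio of 0. On the scale of FPKM + 1 that rescaling left the all-gene median at 0.05.

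The 3 hydroxylase genes lay apart in the RON TK-/- library and close together in the WT library. Egln1 made up 49.4% of their summed FPKM in the RON TK-/- library and 36.2% in the WT library. Egln3 made up 21.3% and 34.4% in the same order, and Egln2 29.3% and 29.4%. The sum of the hydroxylase genes was 74.5 FPKM in the RON TK-/- library and 46.9 FPKM in the WT library, while the sum of Hif1a and Epas1 was 53.9 and 173 FPKM. Hydroxylase RNA was therefore 1.38 times alpha subunit RNA in the RON TK-/- library and 0.27 times in the WT library. This was a 5.09-fold difference between the libraries that rescaling a library leaves as it is. Its larger part came from the alpha subunit sum, which was mainly Hif1a (42.2 and 153 FPKM). This ratio and the other ratios that involve Hif1a thus share 1 difference and are not separate results. Egln1 alone had 0.87 times the Hif1a level in the RON TK-/- library and 0.11 times in the WT library.

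Vhl, the substrate receptor of the ubiquitin ligase, had 15.5 FPKM in the RON TK-/- library and 12.6 FPKM in the WT library. Its log2 ratio of 0.28 was above 0 but below the median ratio of all detected genes, which was 0.57. After the same rescaling the Vhl ratio was -0.25, so its direction depended on the scaling.

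As deposited, the 4 target genes split evenly in direction. Relative to the all-gene median, Vegfa (-1.04), Ndrg1 (-0.84) and Bnip3 (-0.10) were below and only Adm (0.41) was above. Vegfa, a secreted factor that drives growth of blood vessels, had 39.4 FPKM in the RON TK-/- library and 55.0 FPKM in the WT library, a log2 ratio of -0.47. Ndrg1, a stress-responsive gene widely used as a marker of hypoxia, had 31.9 FPKM in the RON TK-/- library and 38.7 FPKM in the WT library, a log2 ratio of -0.27. Vegfa and Ndrg1 were thus lower in the RON TK-/- library, by less than Hif1a. Bnip3, a mitochondrial outer membrane protein that promotes removal of mitochondria, had 113 FPKM in the RON TK-/- library and 82.0 FPKM in the WT library, a log2 ratio of 0.46 that was -0.11 after the same rescaling. Adm, the precursor of the vasodilator peptide adrenomedullin, had 53.3 FPKM in the RON TK-/- library and 26.7 FPKM in the WT library, a log2 ratio of 0.97, just inside the 2-fold limit of 1. Adm had 1.35 times the Vegfa level in the RON TK-/- library and 0.49 times in the WT library. Bnip3 had 2.69 times the Hif1a level in the RON TK-/- library and 0.54 times in the WT library.

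Vegfa is the only one of the 10 genes with more than 1 transcript row. Its 9 rows fall into 6 that begin at an upstream start (chromosome 17, 46032377) and 3 that begin at an internal start (46025163), both on the minus strand. In each set the rows come as a short, a middle and a long splice form. The middle form is 132 bases longer than the short and the long form a further 72 bases longer, from exons that encode the part of the protein that binds heparin and matrix. The short form summed to 17.0 FPKM in the RON TK-/- library and 24.6 FPKM in the WT library, and the middle form to 18.5 and 27.0 FPKM. The long form was the least abundant, with 3.93 FPKM in the RON TK-/- library and 3.43 FPKM in the WT library. The middle form held 46.9% of Vegfa in the RON TK-/- library and 49.0% in the WT library, and the short form 43.2% and 44.8%. The long form held 9.96% and 6.23% in the same order. Summed over both starts, the shares of the short and middle forms were thus similar, although their mix differed within each start.

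The split by start differed more. Rows of the upstream start summed to 29.5 FPKM in the RON TK-/- library and 47.1 FPKM in the WT library, a log2 ratio of -0.66. Rows of the internal start summed to 9.92 and 7.95 FPKM, a log2 ratio of 0.29 in the other direction. The internal start held 25.2% of Vegfa FPKM in the RON TK-/- library and 14.4% in the WT library. The short form from the upstream start had 9.82 FPKM in the RON TK-/- library and 20.4 FPKM in the WT library, and the middle form from that start 15.8 and 23.3 FPKM. From the internal start the short form had 7.21 FPKM in the RON TK-/- library and 4.28 FPKM in the WT library, while the middle form lay the other way at 2.71 and 3.67 FPKM. Single reads of 50 bases rarely tell such overlapping forms apart, so the shares are model estimates with no error given.

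**Figure D2:**
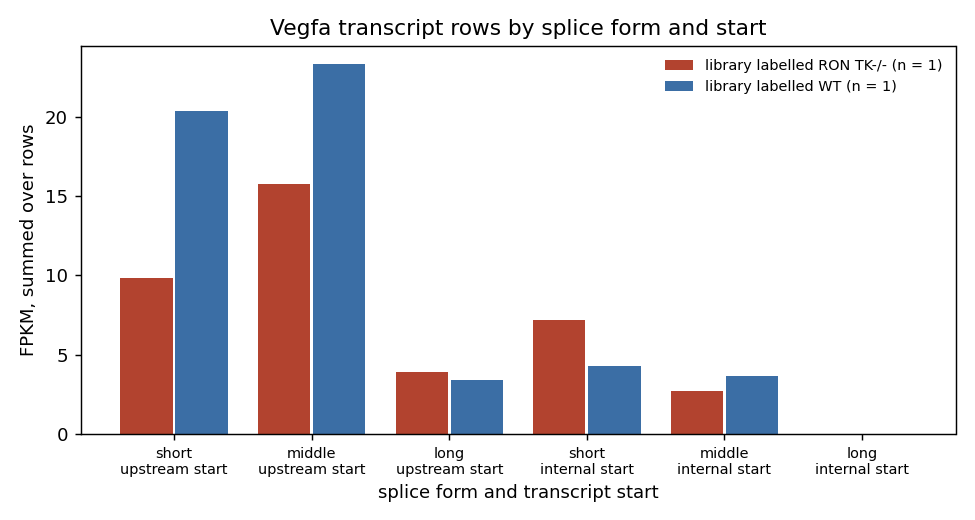
Vegfa FPKM summed over transcript rows by splice form and start, with the RON TK-/- library on the left of each pair and the WT library on the right, 1 library each. The short form from the upstream start has 9.82 and 20.4 FPKM, the short form from the internal start 7.21 and 4.28 FPKM, and the long form from the internal start is near 0 in both.

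All 10 genes passed the minimum of 1 FPKM. At the limit of 2-fold on the scale of FPKM + 1, only Egln1 was higher in the RON TK-/- library, against a background of 25.6% of all 11288 detected genes, and only Hif1a was lower, against 8.71%. The other 8 lay within 2-fold. The 10 genes had a median log2 ratio of 0.13 and all detected genes 0.57. Ratios were above 0 for 5 of the 10 genes and for 76.4% of all detected genes. Read against the all-gene median, none of the 10 was at least 2-fold higher (background 8.38%) and 3 were at least 2-fold lower (background 14.4%). These were Hif1a at -2.40, Epas1 at -1.25 and Vegfa at -1.04 relative to that median. On the same scale Egln1 was at 0.51, Adm at 0.41 and Egln2 at 0.06, and the other 4 genes were below the median. The call of Egln1 as 2-fold higher was lost after rescaling to a median of 0 (0.52) and with a pseudocount of 5 (0.93). The share of all genes apart by 2-fold that were higher was 74.6% as deposited and 43.3% after that rescaling.

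**Figure D3:**
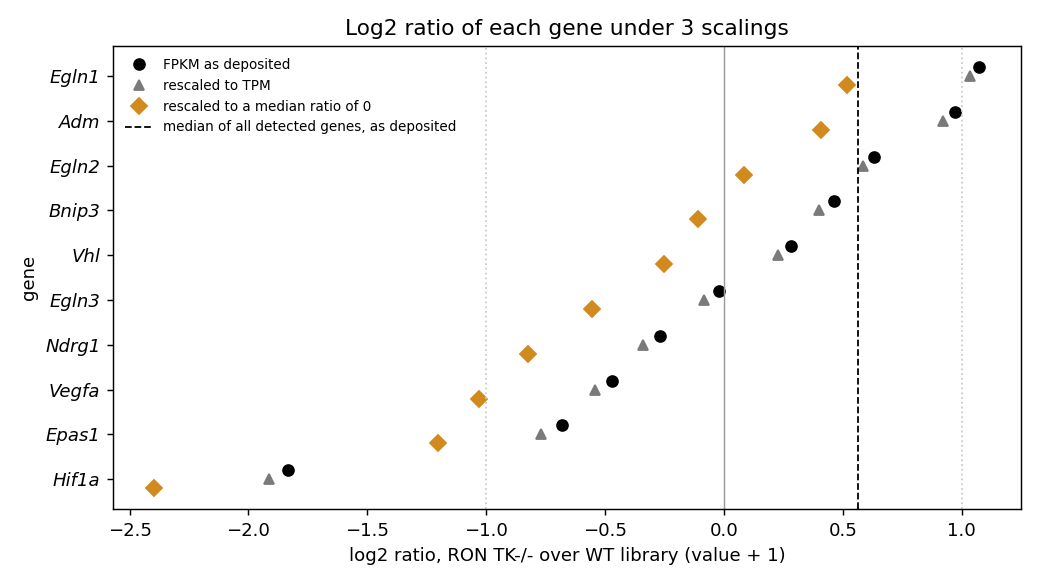
Log2 ratio of each gene, RON TK-/- over WT library, on the value + 1, with 1 marker per scaling. Dotted lines mark 2-fold, and the dashed line marks the median of all detected genes as deposited, 0.57. Egln1, Adm and Egln2 lie to the right of that line as deposited, and Hif1a lies farthest to the left under each scaling, between -2.40 and -1.84.

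These genes were deeply covered. Each had between 1772 and 43574 estimated reads in a library, and the 95% counting interval of the log2 ratio had a half-width of 0.03 to 0.08. As deposited, only for Egln3 did the interval include 0. The intervals come from estimated reads and cover counting error only, not differences between animals or cultures. Per the labels nothing states that strand was kept. Annotated exons of Hif1a share 330 bases with the antisense gene Gm15283 and 148 with Gm49321 on the same strand. Those of Ndrg1 share 419 bases with Gm17035 and 137 with Gm2895, and those of Egln2 share 11 bases with Cyp2t4. The overlap of Bnip3 exons with the antisense gene Gm45507 is the largest of these, longer than the 419 bases of Ndrg1 with Gm17035. Reads from those stretches cannot be assigned to 1 gene.

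On the scale of FPKM + 1, most other genes of the pathway lay within 2-fold. Of 16 partner genes 15 were detected, with a median log2 ratio of 0.12, and 1 was at least 2-fold higher (25.6% of all detected genes were) and 0 were 2-fold lower (8.71% of all). Against the all-gene median 1 was 2-fold higher (8.38% of all) and 1, Cited2, was 2-fold lower at -1.44 (14.4% of all). The higher gene was Arnt2, a second beta subunit best known from neurons, with 4.93 FPKM in the RON TK-/- library and 0.60 FPKM in the WT library. Arnt, the usual beta subunit, had 13.9 FPKM in the RON TK-/- library and 9.70 FPKM in the WT library. The Hif1a level was 3.04 times that of Arnt in the RON TK-/- library and 15.8 times in the WT library. Hif1an encodes the asparaginyl hydroxylase that blocks coactivator binding by the alpha subunit in oxygen. It had 7.70 FPKM in the RON TK-/- library and 3.52 FPKM in the WT library. The Hif1an log2 ratio was within the 2-fold limit on FPKM + 1 (0.95) and past it without the pseudocount (1.13). Hif3a, the gene of the remaining alpha subunit, was near 0 in both.

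Among the partners that act on protein turnover or on activity, Cited2 had the lowest ratio. Cited2 is a HIF target that competes for the coactivators made from Ep300 and Crebbp, and had 30.8 FPKM in the RON TK-/- library and 57.5 FPKM in the WT library. Cul2 and Tceb1 encode the cullin and an elongin of the ligase that works with the Vhl protein. Cul2 had 13.6 FPKM in the RON TK-/- library and 18.6 FPKM in the WT library, and Tceb1 had 57.9 and 69.2 FPKM. Gnb2l1, which encodes the scaffold RACK1, had 587 FPKM in the RON TK-/- library and 383 FPKM in the WT library. All of these lay within 2-fold.

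Most glycolytic targets also lay within 2-fold on the scale of FPKM + 1, with an exception at each end. Of 20 genes, all detected, 1 was 2-fold or more higher (25.6% of all detected genes were) and 1 was 2-fold or more lower (8.71% of all), and the median log2 ratio was 0.37. Pfkfb4, which makes and breaks down the activator of phosphofructokinase, had 35.3 FPKM in the RON TK-/- library and 2.32 FPKM in the WT library. Its relative Pfkfb3, which is strongly induced in inflammatory macrophages, lay on the other side with 17.0 FPKM in the RON TK-/- library and 33.7 FPKM in the WT library. The lower gene was Hk2, a hexokinase, with 27.7 FPKM in the RON TK-/- library and 104 FPKM in the WT library. The hexokinase Hk1 had 39.4 and 79.2 FPKM in the same order. Its log2 ratio was -0.99 on FPKM + 1, just within the limit, and -1.01 without the pseudocount, just past it. Pdk1, which restrains the oxidation of pyruvate in mitochondria, had 14.4 FPKM in the RON TK-/- library and 6.76 FPKM in the WT library. Its log2 ratio was likewise within the limit on FPKM + 1 (0.99) and past it without the pseudocount (1.09). Eno1, an enolase, had 675 FPKM in the RON TK-/- library and 346 FPKM in the WT library. Read against the all-gene median, 1 gene of this list, Pfkfb4, was 2-fold higher (8.38% of all genes). On that reading 5 of the 20, or 25%, were 2-fold lower (14.4% of all). These were Hk2 at -2.44, Hk1 at -1.56, Pfkfb3 at -1.51, Slc2a1 at -1.50 and Pfkp at -1.07.

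Other known targets lay on both sides, counted on the scale of FPKM + 1. Of 37 genes 35 were detected, 9 of them (25.7%) were 2-fold or more higher, close to the share among all detected genes (25.6%), and 6 (17.1%) were 2-fold or more lower, beside 8.71% of all. Against the all-gene median 7 were 2-fold higher (20%, beside 8.38% of all) and 7 were 2-fold lower (20%, beside 14.4% of all). Their median log2 ratio was 0.60, and that of all detected genes 0.57. This list, like the others, was chosen with earlier results of these data known, so its shares only describe its genes. The highest were Ankrd37, an ankyrin repeat gene, with 46.1 FPKM in the RON TK-/- library and 1.46 FPKM in the WT library, the chemokine receptor gene Cxcr4, with 38.8 and 1.63 FPKM, and the VEGF receptor gene Flt1, with 20.8 and 0.52 FPKM. The lowest were Nos2, the inducible nitric oxide synthase, Pdgfb, a growth factor, and Nampt, an enzyme of NAD synthesis. Pdgfb had 1.21 FPKM in the RON TK-/- library and 60.8 FPKM in the WT library, and Nampt had 52.1 and 431 FPKM. Nos2, with the values given above, is also known as a target of NF-kB and interferon signalling.

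**Figure D4:**
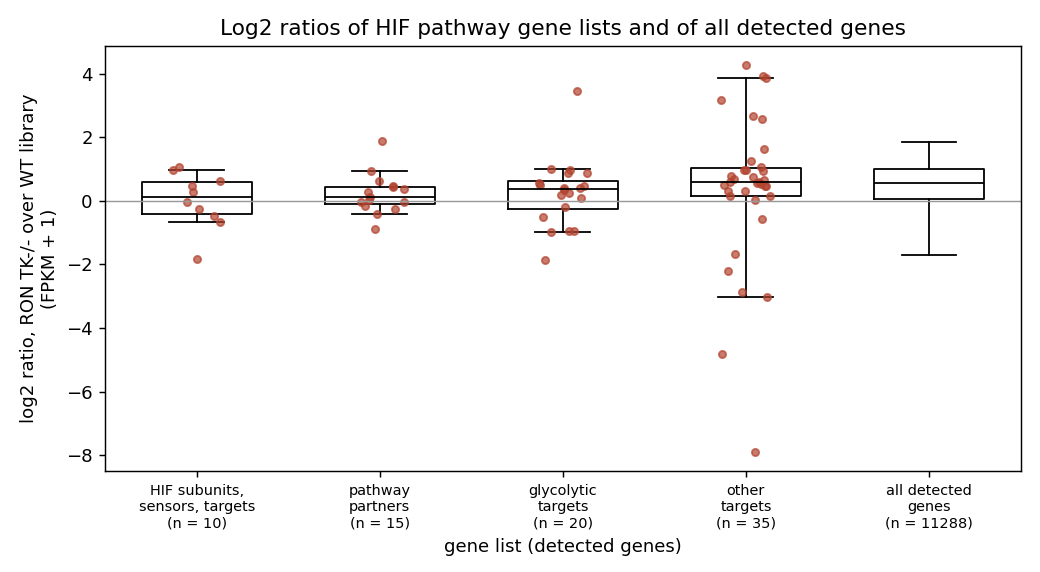
Log2 ratio, RON TK-/- over WT library on FPKM + 1, of the detected genes of each list, with 1 point per gene, and of all 11288 detected genes. Boxes span the quartiles with the median as a line, and whiskers run from the 5th to the 95th percentile. The core genes have a median of 0.13 and all detected genes 0.57, and the list of other targets is the widest, from -7.89 to 4.26.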

How the data were processed

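RNA of 2 libraries, 1 labelled RON TK-/- and 1 labelled WT, was sequenced as single reads of 50 bases from TruSeq libraries, per the labels. For each library the authors deposited a table of RefSeq transcripts with their FPKM and mean coverage, per the file headers. Coverage is a signal not scaled to library size. The genome build was mm10, and DESeq is named with no role, per the submitters' processing notes. No aligner, annotation release or strand setting is given in the sources used here. All 31580 rows of each table had the status OK.

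Coverage over FPKM implied about 67146863 and 59770193 reads for the RON TK-/- and WT libraries. Estimated reads (coverage times length over read length) gave exact binomial (Clopper-Pearson) intervals at 95%, centred on the FPKM ratio. These cover counting error only. No count model was used.

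FPKM was summed per symbol. Ratios were log2 of (FPKM + 1), RON TK-/- over WT, which understates differences of low genes. Detected meant at least 1 FPKM in either library. Locus starts, which the tables count from 0, are printed as 1-based. The RefSeq promoter table (GRCm38.p6) was searched over 250 bases before each start, and exon overlaps were taken from GENCODE M21 on the same assembly. The ratio and its threshold were tried on counts simulated from the WT library with planted differences. That simulation held counting error only, so it does not bear on differences between animals or cultures.

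The members and lists were chosen with earlier results of these data known. The text names the 10 members, up to 3 genes at each end of every list among genes of at least 5 FPKM, every gene of a direction with 5 or fewer, and the activation genes. One gene first listed among the other targets is not reported here. Alternatives were pseudocounts of 0.1 and 5, no minimum or 5 FPKM, the most abundant row only, TPM, rescaling to a median ratio of 0, scaled estimated reads, and thresholds of 1.5-fold and 4-fold. Reading against the all-gene median was added after seeing the data. Python 3.11.15, numpy 2.4.6, pandas 2.3.3, scipy 1.17.1 and matplotlib 3.10.9 were used.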

Additional observations from a re-analysis of the deposited data

How the results depend on the processing

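No paired analysis was possible because each group had 1 library, and for the same reason no replicate could be left out. Of 80 recomputed ratios of the 10 genes, 29 equal the reported ratio by construction, since a minimum or a choice of rows cannot change a gene with 1 row that passes it. Of the other 51, 29 moved by less than their counting interval and 22 by more. Under the 5 settings that can change every gene (both pseudocounts, both rescalings and scaled estimated reads) 8 genes kept their sign. The exceptions were Vhl and Bnip3, whose ratios were below 0 only after rescaling to a median ratio of 0. Hif1a ranged from -2.40 to -1.74 and Egln1 from 0.52 to 1.11. The median of the 10 genes was 0.13 as reported, 0.072 after rescaling to TPM and -0.41 after rescaling to a median ratio of 0.

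The number of genes apart by 2-fold, both directions together, was 3873 of all detected genes, 2 core genes, 1 partner gene, 2 glycolytic targets and 15 other targets. With a 1.5-fold threshold these were 6927, 5, 4, 9 and 24, and with a 4-fold threshold 882, 0, 0, 1 and 11, where a change of the threshold changes the count by construction. A pseudocount of 0.1 gave 2 partner genes and 4 glycolytic targets, and a pseudocount of 5 gave 1674 of all genes, 1 core gene and 0 partner genes. A minimum of 5 FPKM gave 0 partner genes, since Arnt2 was no longer used. Rescaling to a median ratio of 0 gave 2580 of all genes, 3 core genes, 2 partner genes, 6 glycolytic targets and 14 other targets. The core genes were then 0 higher and 3 lower, where 1 was higher and 1 lower as deposited. The glycolytic targets were 1 higher and 5 lower, and the other targets 7 and 7. Rescaling to TPM gave 5 glycolytic targets, 1 higher and 4 lower, where 1 was higher and 1 lower as deposited. TPM scales each library by its total FPKM, which was 446327 in the RON TK-/- library and 426617 in the WT library. Reading against the all-gene median gave 2573 of all genes, 3 core genes (0 higher and 3 lower) and 2 partner genes. It gave 6 glycolytic targets (1 higher and 5 lower) and 14 other targets (7 and 7).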

Other observations

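The receptors for the secreted products of Vegfa and Adm were looked up after the other values had been seen. Of 8 receptor genes 5 were detected. Flt1, a VEGF receptor gene that is also in the list of other targets, had 20.8 FPKM in the RON TK-/- library and 0.52 FPKM in the WT library. Kdr, the main signalling receptor for VEGF on endothelium, had 1.72 FPKM in the RON TK-/- library and 6.54 FPKM in the WT library, so these 2 receptor genes differed in opposite directions. The co-receptor genes Nrp1 and Nrp2 also lay on opposite sides. Nrp1 had 55.1 FPKM in the RON TK-/- library and 29.9 FPKM in the WT library, and Nrp2 had 47.1 and 204 FPKM. Calcrl, the adrenomedullin receptor gene, had 5.76 FPKM in the RON TK-/- library and 9.82 FPKM in the WT library, while its partners Ramp1, Ramp2 and Ramp3 were under 1 FPKM in both.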
